A study of Sus scrofa with 4 samples.

Results

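The proneural bHLH group comprised 7 porcine genes, chosen by symbol from the 25880 genes of the deposited count table: NEUROG1, NEUROG2, NEUROD1, NEUROD4, HES5, HES6 and OLIG2. Each was matched by its Ensembl identifier. RNA had been sequenced from 4 cultures that all descended from the ear skin fibroblasts of 1 post-neonatal pig. Fibroblasts (n = 1, passage 1) were the starting cells. The iNSLCs, or induced neural stem cell-like cells (passage 1, n = 1), were the dome-shaped colonies that appeared in a medium developed for naive-state cells, after transfection with episomal vectors carrying reprogramming genes. The iPSCs, or induced pluripotent stem cells (passage 3, n = 2 clones), were obtained from such colonies in an embryonic stem cell medium to which IWP2, an inhibitor of WNT signalling, had been added together with TGF-β1 and activin A. The iPSC clones differed from the other cultures in passage and medium as well as in cell state, and these cannot be told apart. Because each library came from a whole culture, fewer cells of a type and less RNA per cell cannot be told apart either.

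Basic helix-loop-helix (bHLH) proteins bind DNA as pairs. The proneural factors NEUROG1 and NEUROG2 pair with the widely made E proteins and commit neural progenitors to become neurons, and NEUROD1 and NEUROD4 act after them as the young neuron matures. HES5 is a repressor that is switched on by Notch signalling and keeps progenitors undifferentiated, HES6 is a relative that counteracts HES1 in mouse and favours neuron formation, and OLIG2 marks progenitors of motor neurons and oligodendrocytes.

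Total counts ranged between 21640374 and 62421521 per library, so 1 count corresponded to between 0.0216 and 0.0422 CPM (counts scaled to library size) after TMM scaling, which corrects for library size and composition. The level of 3 counts, which a count of 0 still allows, was 0.0648 CPM in fibroblasts, 0.105 CPM in iNSLCs, and 0.127 and 0.0656 CPM in iPSC clones 1 and 2. Summed over 8 marker genes, neuronal transcripts stood at 16.8 CPM in fibroblasts, 979.7 CPM in iNSLCs, and 300.1 and 293.9 CPM in the iPSC clones. The summed level of 8 neural stem markers was 72.5, 811.7, 822.1 and 922.4 CPM in the same order, and that of 8 pluripotency markers was 4.10, 957.1, 2518 and 2630 CPM. Of the 8 neural stem markers, 6 were at least 4-fold higher in iNSLCs than in fibroblasts, with NES the most abundant at 383.8 CPM in iNSLCs. HES1 was only 1.38-fold higher, and PAX6 was lower, at 21.53 CPM in fibroblasts and 14.55 CPM in iNSLCs. The 8 fibroblast markers summed to 137700 CPM in fibroblasts and still to 52690 CPM in iNSLCs, against 869.8 and 891.9 CPM in the clones. The iNSLC library thus carried fibroblast, neural and pluripotency transcripts together, and which cells held the bHLH transcripts was not tested. SOX2 was in both the neural stem and the pluripotency sums. The episomal vectors encoded human OCT4, SOX2, LIN28 and NANOG among other genes. Whether vector reads entered the counts of POU5F1 (OCT4), SOX2, LIN28A or NANOG was not tested.

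Of the 7 genes, 6 had their highest level in iNSLCs, at least 4-fold above each of the other 3 libraries, which was seen in 2.85% of the 15739 genes tested. The summed level of the NEUROG and NEUROD genes was 0.238 CPM in fibroblasts (11 counts), 26.0 CPM in iNSLCs (746 counts), and 0.0422 and 0.0656 CPM in iPSC clones 1 and 2 (1 and 3 counts). The exception was OLIG2, which had between 0 and 8 counts in every library. All 7 genes passed the filter on low counts, but NEUROG1, NEUROG2, NEUROD1, NEUROD4 and HES5 did so through the iNSLC library, so passing says nothing about them. For the same reason the iNSLC peak of the members beside the share of 2.85% is a description only.

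**Figure D1:**
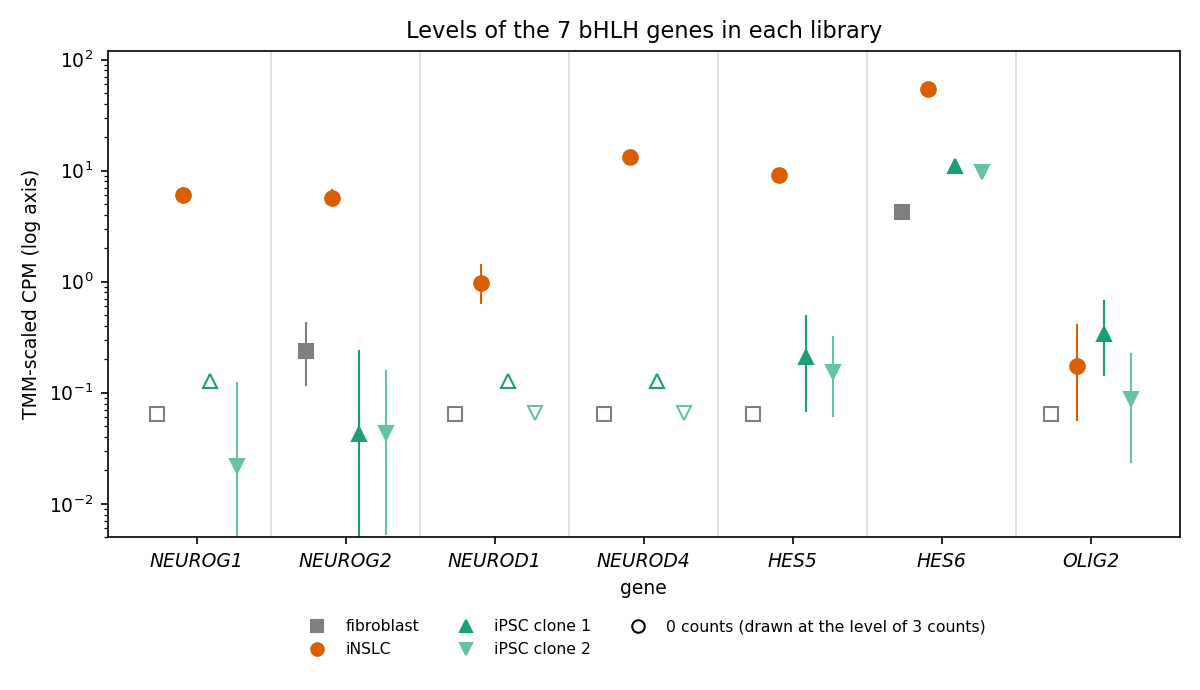
TMM-scaled CPM (log axis) of the 7 bHLH genes in the fibroblast, iNSLC and iPSC libraries, with exact Poisson 95% intervals, which cover counting error only. Open symbols are libraries with 0 counts, drawn at the level of 3 counts. The iNSLC symbol lies above all others for 6 genes, and for OLIG2 the intervals of iNSLCs and both clones overlap.

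The neurogenins were examined first, as they act earliest. NEUROG1 (ENSSSCG00000014309, chromosome 2, 137765942 to 137766682, minus strand, Sscrofa11.1) had 0 counts in fibroblasts, 173 counts in iNSLCs (6.04 CPM), and 0 and 1 counts in iPSC clones 1 and 2. NEUROG2 (ENSSSCG00000033479, chromosome 8, 110201161 to 110201979, plus strand) had 11 counts in fibroblasts (0.238 CPM), 164 counts in iNSLCs (5.72 CPM), and 1 and 2 counts in the clones. Of the 4 NEUROG and NEUROD genes, NEUROG2 alone had a count in fibroblasts.

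In iPSC clones against iNSLCs, NEUROG1 was 419-fold lower on pooled counts, with a 95% counting interval of 74.3 to 16650, and the log2 fold change was -8.42 ± 0.80 (SE; adjusted p = 0.00512, edgeR quasi-likelihood test). NEUROG2 was 133-fold lower in iPSC clones than in iNSLCs (interval 44.5 to 649), with a log2 fold change of -6.94 ± 0.61 (SE; adjusted p = 0.0044, edgeR). The p-values rest on the spread between the 2 clones and on dispersion that edgeR shares over all tested genes. With at most 2 counts of NEUROG1 or NEUROG2 in a clone, their own clone spread was hardly measured. The edgeR fit assumed that the lone iNSLC and fibroblast libraries varied as the clones did. The comparison of iNSLCs with fibroblasts was described without a test. In iNSLCs, NEUROG1 stood 93.2-fold above the level that its count of 0 in fibroblasts still allows (interval from 74.98). NEUROG2 was 24.1-fold higher in iNSLCs than in fibroblasts (interval 13.1 to 49.2).

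NEUROD4 (ENSSSCG00000035778, chromosome 5, 20046937 to 20057397, plus strand), which drives neuronal differentiation together with the neurogenins, had 381 counts in iNSLCs (13.3 CPM) and 0 counts in the fibroblast library and both clones. NEUROD1 (ENSSSCG00000016011, chromosome 15, 87175766 to 87179819, minus strand), which also acts in endocrine pancreas, had 28 counts in iNSLCs (0.977 CPM) and 0 counts in the other 3 libraries. Counts in iNSLCs alone were found for 498 genes, and NEUROD4 ranked 2 among them by count, behind COL6A5 with 3741 counts. NEUROD1 was among the 20 such genes with 28 counts or more. These 20 also included the homeobox gene HOXB1 (248 counts), the neuronal bHLH gene NHLH2 (62), PRDM13 (39) and ONECUT3 (30). They held MMP27 (201), RXFP1 (148) and the keratin genes KRT4 (70) and KRT36 (59) as well, so the set was not confined to neural genes. These further genes were singled out here after their values were seen.

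In iPSC clones against iNSLCs, NEUROD4 was at least 138-fold lower and NEUROD1 at least 10.2-fold lower, bounds set by 3 counts per library. Both were called by edgeR, with adjusted p = 0.00452 for NEUROD4 and 0.0472 for NEUROD1. Neither gene had a count in a clone, so its own clone spread was not measured and these p-values rest on the shared dispersion. The NEUROD1 call did not hold without the low-count filter (adjusted p = 0.057, edgeR), and DESeq2 gave it no adjusted p. In iNSLCs, against the level of 3 counts in fibroblasts, NEUROD4 was 205-fold higher (interval from 166.1) and NEUROD1 15.1-fold higher (interval from 11.5). The 6 endocrine markers set beside NEUROD1 did not share 1 pattern. INS had 0 counts in all 4 libraries, and GCG had 34 counts in iNSLCs and 0 counts elsewhere. CHGA was at 42.5 and 39.4 CPM in the clones and 19.4 CPM in iNSLCs (adjusted p = 0.0153, edgeR). SST was detected in all 4 libraries, NKX2-2 was highest in fibroblasts at 6.05 CPM, and PAX4 had between 0 and 4 counts.

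The HES genes were both detected in both clones. HES5 (ENSSSCG00000037304, chromosome 6, 64409831 to 64410496, minus strand) had 0 counts in fibroblasts, 259 counts in iNSLCs (9.04 CPM), and 5 and 7 counts in clones 1 and 2 (0.211 and 0.153 CPM). HES6 (ENSSSCG00000016342, chromosome 15, 137785761 to 137787694, minus strand) was the single member well detected in all libraries. It had 197 counts in fibroblasts (4.25 CPM), 1571 counts in iNSLCs (54.8 CPM), and 263 and 446 counts in the clones (11.1 and 9.75 CPM). The clones lay close together for both genes, above the fibroblasts and far below the iNSLCs.

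HES5 fell 52.3-fold in iPSC clones relative to iNSLCs on pooled counts (interval 29.4 to 103; log2 fold change -5.65 ± 0.47 SE; adjusted p = 0.00404, edgeR), and the mean CPM of the clones was 2.01% of the iNSLC level. HES6 fell 5.37-fold in the clones relative to iNSLCs on pooled counts (interval 4.91 to 5.88; log2 fold change -2.40 ± 0.18 SE; adjusted p = 0.00322, edgeR), and its mean CPM in the clones was 19.0% of the iNSLC level. The counting intervals of these 2 folds did not overlap. In iNSLCs, HES5 stood 139.5-fold above the level that its count of 0 in fibroblasts still allows (interval from 112.7). HES6 was 12.9-fold higher in iNSLCs than in fibroblasts (interval 11.1 to 15.0).

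OLIG2 (ENSSSCG00000012039, chromosome 13, 196599822 to 196600793, plus strand) had 0 counts in fibroblasts, 5 counts in iNSLCs (0.175 CPM), and 8 and 4 counts in iPSC clones 1 and 2 (0.338 and 0.0874 CPM). The iNSLC value lay between those of the clones. The pooled ratio of iPSC clones over iNSLCs was 0.99, with an interval of 0.325 to 3.59 (adjusted p = 0.94, edgeR). Counting error alone thus allowed a level up to 3.08-fold lower or 3.59-fold higher in the clones. Its relative OLIG1 had 0 counts in all 4 libraries. Leaving out clone 1 turned the log2 ratio of OLIG2 to -0.997, against 0.28 with both clones. The 5 other oligodendrocyte lineage genes measured did not share 1 pattern. SOX10, which acts in oligodendrocytes and neural crest, was at 0.194 CPM in fibroblasts, 3.73 CPM in iNSLCs, and 0.507 and 0.962 CPM in the clones. The myelin gene MBP was at 1.08, 7.36, 9.79 and 8.81 CPM in the same order, and MOG had between 6 and 39 counts in each library. PDGFRA and CSPG4, which fibroblasts also express, were highest in fibroblasts at 383.7 and 88.3 CPM.

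**Figure D2:**
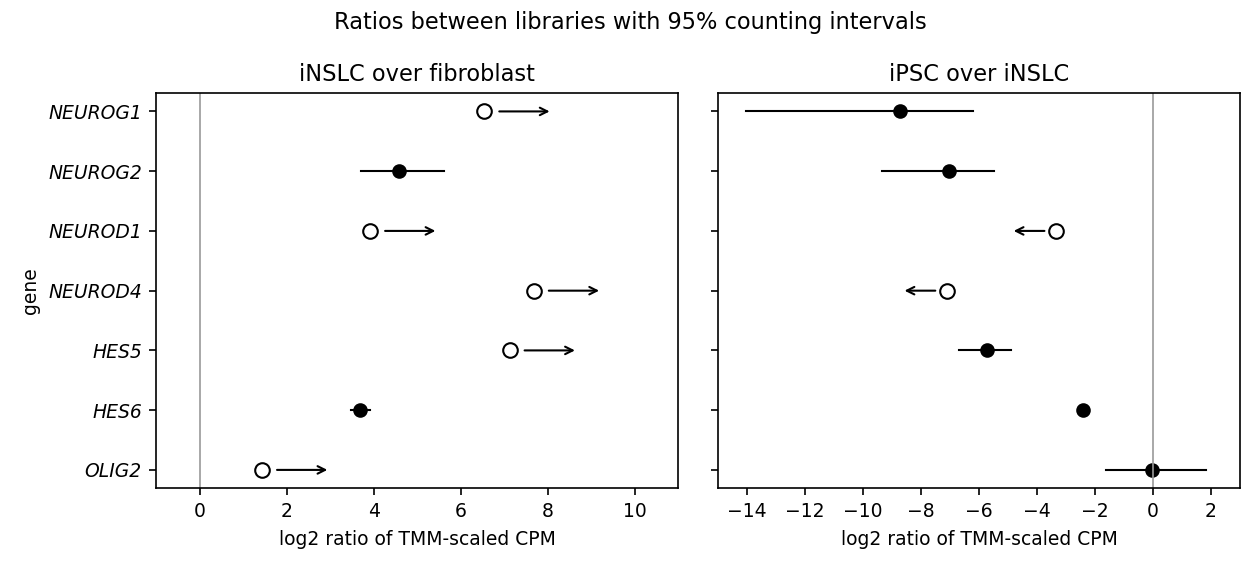
Log2 ratios of TMM-scaled CPM for iNSLCs over fibroblasts (left) and iPSC clones, counts pooled, over iNSLCs (right). Filled points have exact 95% counting intervals as lines, and open points with arrows are bounds set by 3 counts in the libraries at 0. In iPSC clones over iNSLCs, HES6 lies nearest to 0 among the 6 called genes, and OLIG2 spans 0.

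Counted across the members, 6 of 7 were called lower and 0 were called higher in iPSC clones than in iNSLCs, against 14.1% of all tested genes called lower and 14.1% called higher. The median log2 ratio of iPSC clones over iNSLCs was -5.63 for the 7 genes, with undetected genes at their bound, and -0.0011 for all tested genes. In iNSLCs against fibroblasts, 6 of 7 were at least 4-fold higher, against 17.8% of tested genes, and the median log2 ratio was 4.59 for the members and 0.10 for all tested genes. NEUROG1, NEUROG2, NEUROD1, NEUROD4 and HES5 entered the tested set through their iNSLC counts. The counts of members are therefore a description and not a test of the group.

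The iPSC clones were next set against the starting fibroblasts, a comparison that uses the same clone libraries. Here 1 member was called lower and 2 were called higher in iPSC clones, against 27.5% of tested genes called lower and 29.6% called higher. HES6 was at 10.4 ± 0.96 CPM in the clones (SD, n = 2) and at 4.25 CPM in fibroblasts. It was 2.40-fold higher in the clones on pooled counts (interval 2.05 to 2.83; adjusted p = 0.00619, edgeR). HES5 had 12 counts in the clones together and 0 counts in fibroblasts. It was 2.81-fold higher in the clones against the level of 3 counts in fibroblasts (interval from 1.85; adjusted p = 0.0169, edgeR). NEUROG2, with 3 counts in the clones together and 11 in fibroblasts, was 5.50-fold lower in the clones (interval 1.45 to 30.7; adjusted p = 0.0448, edgeR), and this call did not hold with total-count scaling (adjusted p = 0.087, edgeR) or in DESeq2 (adjusted p = 0.155). OLIG2, with 12 counts in the clones together and 0 in fibroblasts, was not called (adjusted p = 0.12, edgeR), and NEUROG1, NEUROD1 and NEUROD4 were at or below 3 counts in each of these libraries.

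TMM scaling, relative to total counts, shifted all log2 ratios of iPSC clones over fibroblasts by -0.57 and those of iNSLCs over fibroblasts by -0.58, but those of iPSC clones over iNSLCs by only 0.01. With TMM, 4665 genes were called higher and 4326 lower in iPSC clones than in fibroblasts, and with total counts 7063 were called higher and 2645 lower (edgeR). HES6 and HES5 were called higher in the clones under both scalings.

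The clones themselves were compared by counting error alone. At least 4-fold differences between clone 2 and clone 1 were found in 2.29% of tested genes and in 0 of the 3 members above 3 counts in both clones, which were HES5, HES6 and OLIG2. HES6 in clone 2 was 0.878 times its level in clone 1 (interval 0.752 to 1.03), and HES5 was 0.725 times (interval 0.198 to 2.90). OLIG2 was 0.259 times its clone 1 level in clone 2 (interval 0.057 to 0.966), on 4 and 8 counts.

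To compare the genes with one another, levels were divided by the counted length of each gene. In iNSLCs, HES6 was highest at 35.6 CPM per kb, followed by HES5 at 18.3, NEUROG1 at 8.15, NEUROG2 at 6.99, NEUROD4 at 3.85, NEUROD1 at 0.395 and OLIG2 at 0.18 CPM per kb. The step between NEUROG1 and NEUROG2 did not exceed counting error (ratio 1.17, interval 0.936 to 1.45), nor did that between NEUROD1 and OLIG2 (ratio 2.20, interval 0.84 to 7.31). The other 4 steps did, and NEUROD4 stood 9.74-fold above NEUROD1 (interval 6.63 to 14.9). In the clones, HES6 at 7.20 and 6.32 CPM per kb stood 16.9-fold and 20.4-fold above HES5, the next member. HES6 in iNSLCs ranked above 93.2% of detected genes per kb, HES5 above 84.6% and NEUROG1 above 67.2%. The counted models of NEUROG1, NEUROG2 and OLIG2 were single blocks of 741, 819 and 972 bases, each a multiple of 3, against RefSeq gene spans of 3697, 5401 and 5360 bases. The counted length of HES5 was 495 bases, also a multiple of 3, against a span of 1432 bases. Reads outside the counted models were not used, which limits the comparison per length.

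Other bHLH genes of neural tissue showed the iNSLC peak in part. Of 16 listed genes, 6 were tested, and 4 were called lower and 0 higher in iPSC clones than in iNSLCs. Over all tested genes, 14.1% were called lower and 14.1% higher. ATOH1 and NHLH2 entered the tested set through their iNSLC counts, as did ST18, SCRT1, SOX1 and DLL4, among others, in the lists below. The counts and medians of all lists are therefore a description and not a test. OLIG3, a dorsal progenitor factor, was the most abundant in iNSLCs, with 0 CPM in fibroblasts, 15.9 CPM in iNSLCs, and 0.675 and 1.07 CPM in the clones (adjusted p = 0.00501 for iPSC clones against iNSLCs, edgeR). ATOH1, known from cerebellar granule cells and hair cells, had 42 counts in iNSLCs and 0 in fibroblasts and fell in the clones relative to iNSLCs (adjusted p = 0.0306, edgeR, and 0.136 in DESeq2).

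NHLH2 had 62 counts in iNSLCs and 0 counts in the other libraries (adjusted p = 0.0223 for iPSC clones against iNSLCs, edgeR). Its close relative NHLH1, with 45 counts in iNSLCs and 0 in fibroblasts, just missed the threshold (adjusted p = 0.0547, edgeR). ATOH8 ran otherwise, being highest in fibroblasts at 21.9 CPM, with 8.10 CPM in iNSLCs and 1.01 and 1.31 CPM in the clones. BHLHE22 was at 0.977 CPM in iNSLCs and was not called (adjusted p = 0.324, edgeR). NEUROG3, the endocrine neurogenin, was at 0.0698 CPM in iNSLCs, PTF1A and ASCL2 were at 0.174 CPM each, and ATOH7 was at 0.0864 CPM in fibroblasts and 0 CPM elsewhere. NEUROD2, NEUROD6 and MSGN1 had 0 counts in all 4 libraries.

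**Figure D3:**
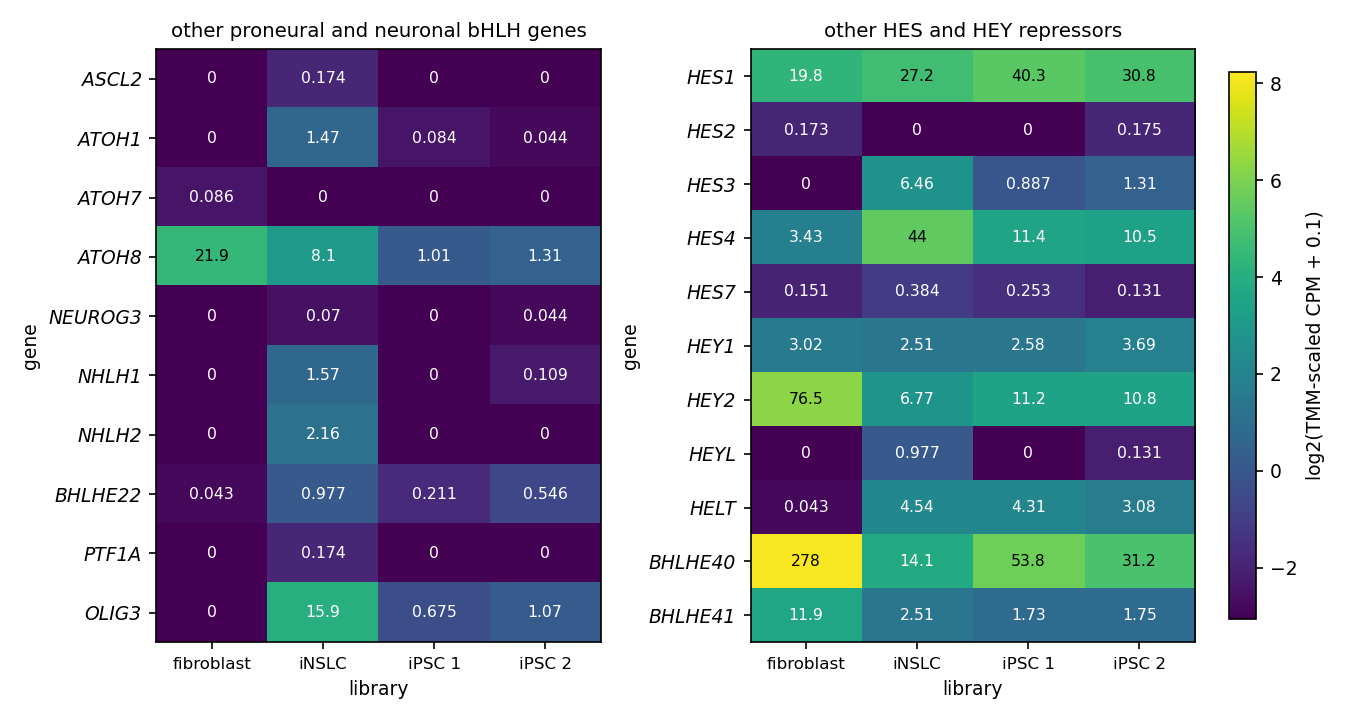
TMM-scaled CPM (printed in each cell; colour is log2(CPM + 0.1)) of the other listed neural bHLH genes with any count (left) and of the other HES and HEY genes (right) in the 4 libraries. OLIG3, ATOH1, NHLH1 and NHLH2 are brightest in iNSLCs, as are HES3 and HES4, whereas HES1 is at 19.8 CPM or more in every library.

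The HES and HEY repressors other than HES5 and HES6 did not move in 1 direction. Of 10 tested, 2 were called lower (HES3 and HES4) and 2 higher (HEY2 and BHLHE40) in iPSC clones than in iNSLCs. Among all tested genes the shares were 14.1% lower and 14.1% higher. The list median was 0.01 on the log2 scale (medians are over genes at 1 CPM or more in any library). HES4 had a pattern over the libraries like that of HES6, with 3.43 CPM in fibroblasts, 44.0 CPM in iNSLCs, and 11.4 and 10.5 CPM in the clones (adjusted p = 0.00454, edgeR). HES3 was at 0 CPM in fibroblasts, 6.46 CPM in iNSLCs, and 0.887 and 1.31 CPM in the clones (adjusted p = 0.0207, edgeR). HES1, the principal Notch target in many progenitors, was at 19.8, 27.2, 40.3 and 30.8 CPM in the same order and was not called between iPSC clones and iNSLCs (adjusted p = 0.245, edgeR). HEY2 was at 11.2 and 10.8 CPM in the clones and 6.77 CPM in iNSLCs (adjusted p = 0.0404, edgeR, and 0.102 in DESeq2). BHLHE40, a clock and stress-responsive repressor, was at 53.8 and 31.2 CPM in the clones and 14.1 CPM in iNSLCs (adjusted p = 0.0394, edgeR). Both were highest in fibroblasts, HEY2 at 76.5 CPM and BHLHE40 at 277.7 CPM.

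E proteins pair with the proneural factors, and ID proteins sequester the E proteins. Of 6 E protein and ID genes tested, 2 were called lower and 0 higher in iPSC clones than in iNSLCs, where 14.1% of all tested genes were called lower, and the list median was -0.63 on the log2 scale. The E protein genes TCF12 (152.5 and 130 CPM in the clones, 247.4 CPM in iNSLCs; adjusted p = 0.021, edgeR) and TCF3 (111.1 and 116.1 CPM in the clones, 166.4 CPM in iNSLCs; adjusted p = 0.0306, edgeR, and 0.0507 in DESeq2) were abundant throughout. ID2, whose product sequesters E proteins, was at 57.8 and 77.6 CPM in the clones and 115.6 CPM in iNSLCs (adjusted p = 0.051, edgeR, and 0.0158 in DESeq2). ID4 was not called either (adjusted p = 0.106, edgeR).

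In the Notch pathway, 6 of 19 tested genes were called lower and 0 higher in iPSC clones than in iNSLCs, and 3 of these 6 were ligands. The shares over all tested genes were 14.1% lower and 14.1% higher. DLL4 had 0 CPM in fibroblasts, 5.93 CPM in iNSLCs, and 0.0844 and 0.0874 CPM in the clones (adjusted p = 0.00497, edgeR). DLL1, a ligand that proneural factors activate directly in mouse, was at 6.84 CPM in fibroblasts, 36.8 CPM in iNSLCs, and 3.42 and 3.87 CPM in the clones (adjusted p = 0.00237, edgeR). The coactivator gene MAML2 was at 75.1, 38.9, 8.78 and 8.50 CPM in that order. JAG1, DTX4 and NOTCH3 were also called lower. DLL3, an inhibitory ligand of nascent neurons, was at 3.0 and 3.87 CPM in the clones and 8.13 CPM in iNSLCs and missed the threshold (adjusted p = 0.0606, edgeR). RBPJ, which carries the Notch signal to DNA, was at 110.3 and 106.3 CPM in the clones and 100.8 CPM in iNSLCs. NOTCH1, JAG2 and NRARP had 0 counts in all 4 libraries, the deepest included, and whether their gene models captured the transcripts was not tested, so these zeros say nothing about expression.

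Among 30 tested genes that lie downstream of proneural factors in vertebrate neurogenesis, 19 were called lower and 1 higher in iPSC clones than in iNSLCs. This stood against 14.1% of all tested genes called lower and 14.1% called higher. The list median was -1.93 on the log2 scale. Of the 30, 12 were at least 4-fold higher in iNSLCs than in each other library. PRDM8, GADD45G and BTG2 were called lower too but were highest in fibroblasts, at 39.7, 21.6 and 44.4 CPM. DLL1, DLL3 and NHLH1, described above, were also on this list. DCX, a microtubule protein of migrating neurons, was at 5.38 CPM in fibroblasts, 54.6 CPM in iNSLCs, and 1.43 and 1.68 CPM in the clones (adjusted p = 0.00131, edgeR). SCRT1, a neuronal repressor, was at 0.0432, 4.57, 0.0422 and 0.131 CPM in that order (adjusted p = 0.0101, edgeR). ST18 had 84 counts in iNSLCs and 0 in fibroblasts and fell in the clones relative to iNSLCs (adjusted p = 0.0126, edgeR). The gene called higher was EOMES, a factor of intermediate progenitors that also specifies mesendoderm. It was at 156.5 and 109.2 CPM in the clones, 2.48 CPM in iNSLCs and 0.0432 CPM in fibroblasts (adjusted p = 0.00229, edgeR).

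Of 17 tested factors that mark progenitor domains, 9 were called lower and 3 higher in iPSC clones than in iNSLCs. Across all tested genes, 14.1% were called lower and 14.1% higher. The list median was -1.80 on the log2 scale. PDGFRA was among the 9 but was highest in fibroblasts at 383.7 CPM. SOX1 had 62 counts in iNSLCs, 0 in fibroblasts and 2 and 4 in the clones (adjusted p = 0.0188, edgeR, and 0.0536 in DESeq2). PAX3, a dorsal neural tube and neural crest factor, was at 0.972 CPM in fibroblasts, 21.6 CPM in iNSLCs, and 1.14 and 2.12 CPM in the clones (adjusted p = 0.00712, edgeR). NKX2-2, a ventral factor, was at 0 and 0.153 CPM in the clones and 0.803 CPM in iNSLCs and was not called (adjusted p = 0.0859, edgeR). CSPG4, the NG2 proteoglycan of oligodendrocyte precursors and pericytes, was called higher (3.21 and 5.22 CPM in the clones, 0.558 CPM in iNSLCs; adjusted p = 0.0147, edgeR) but was highest in fibroblasts at 88.3 CPM.

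**Figure D4:**
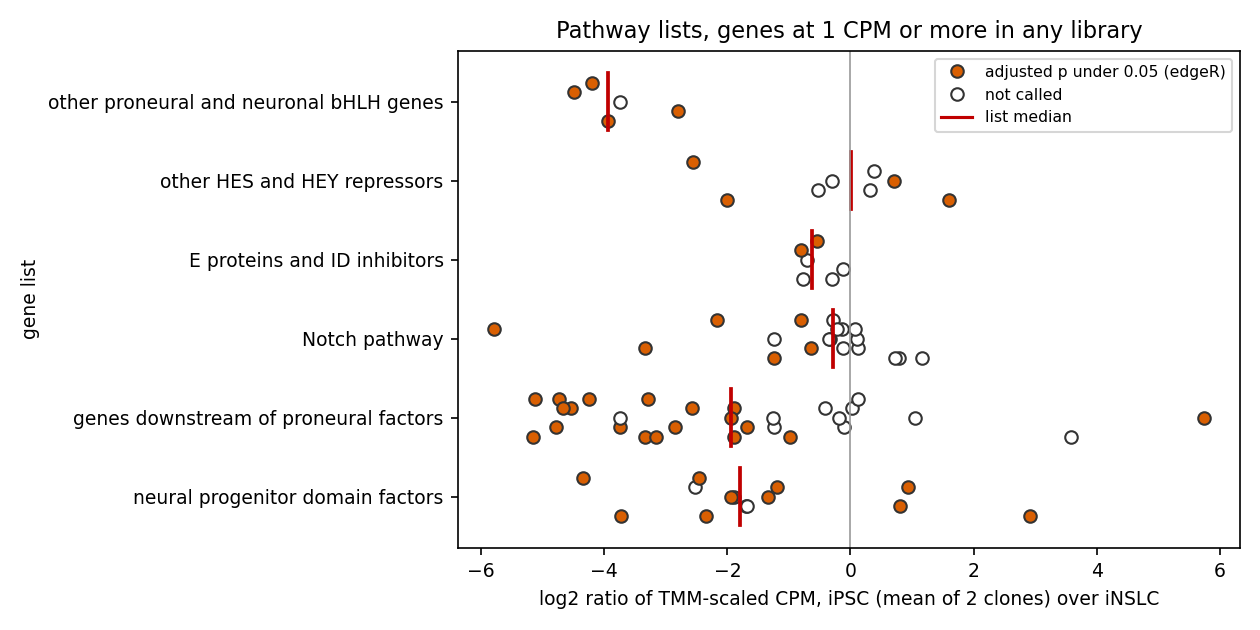
Log2 ratios of iPSC clones (mean of 2) over iNSLCs for genes at 1 CPM or more in any library, by gene list. Filled points had an adjusted p under 0.05 (edgeR), undetected genes stand at their bound, and red bars are list medians, which run between -3.93 for the other bHLH genes and 0.01 for the HES and HEY repressors.

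Finally, the genes whose pattern over the 4 libraries lay nearest to that of each member were sought among 11316 named genes at 5 CPM or more in any library, by Euclidean distance of centred log2(CPM + 0.5). Nearest to NEUROG1 were ATP1B4, TNMD and NSG2 (distances 0.128, 0.13 and 0.14), and nearest to NEUROG2 were CD38, HOXA3 and PDCD1LG2 (0.35, 0.358 and 0.36). NEUROD4 had its nearest neighbours in BCAS1, LRRTM1 and HOXB1 (0.406, 0.441 and 0.512). For HES5 these were SRRM4, a neural splicing regulator, POU3F2 and INSM1 (0.185, 0.328 and 0.329), the last 2 of which were also on the list of genes downstream of proneural factors. HES6 was nearest to TTLL11, SMPD3 and NKAIN3 (0.158, 0.283 and 0.337). The 0.5 CPM added before taking logs shrinks ratios at low levels, so a small distance need not mean a like fold. TTLL11 was at 0.0432 CPM in fibroblasts and 5.55 CPM in iNSLCs, and HES6 was at 4.25 and 54.8 CPM. With 4 libraries, any gene confined to iNSLCs at a like level comes out near, and the distances are a description only.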

How the data were processed

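For 4 porcine libraries the authors deposited tables of whole-number read counts. The submitters' processing notes name Trim Galore 0.4.0 (trimming), STAR 2.5.3a (alignment) and featureCounts 1.5.2 (counting per gene), with the Sscrofa11.1 build. The counts were not normalized. The strand setting of the counting was not given in the sources used here, and antisense reads over a gene cannot be told apart from its own. The 4 single tables were identical to the series table. Groups came from the labels.

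Symbols came from Ensembl identifiers for 14857 genes, including all 7 members. A further 1541 were named by position, where exactly 1 protein-coding RefSeq gene (Sscrofa11.1) covered 80% of the shorter and 10% of the longer gene. This rule replaced 3 earlier forms, which named 1496, 1650 and 1367 genes, after it was seen which listed genes they had left unnamed, SOX2 among them. INSM1, POU3F2, SOX1 and SOX2 were named by position. BHLHE23 and TAL2 had no row under their names and were not used here.

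Scaling was by TMM. Counts were tested with the edgeR 4.0.16 quasi-likelihood test (R 4.3.3; two-sided) over 4 libraries in 3 groups, after filterByExpr. P-values of the 15739 remaining genes were adjusted by Benjamini-Hochberg, with a threshold of 0.05. The iPSC clones left 1 residual degree of freedom (common biological coefficient of variation 0.198). The fit was checked on simulated counts. Which model the study fitted to the porcine libraries was not given there. The iNSLC and fibroblast comparison and that between clones had no test. For ratios, libraries under 3 counts were raised to 3 counts, and a fold against a group at 0 is a bound set by this floor. Such a fold leaves out counting error in the other group. For folds over fibroblasts at 0, the lower end of an interval is printed beside the fold. Other folds printed with an interval are of pooled counts. The intervals are exact conditional binomial 95% intervals of pooled counts, which cover counting error only.

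The members, gene lists and tests were chosen with earlier results of these data known. The lists came from textbook knowledge. The text names all members, up to 4 genes per list by size of the log2 ratio of iPSC clones over iNSLCs among those at 1 CPM in any library, the other listed bHLH genes with a count, and the 3 nearest genes by pattern. Some genes that these rules select are not reported here and were left out of the list counts. Further list genes are named as context and were picked after their values were seen. Alternatives were RLE and total-count scaling, DESeq2 1.42.0, no low-count filter, the 3 libraries of a comparison alone, each clone left out and a floor of 1 count.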

Additional observations from a re-analysis of the deposited data

How the results depend on the processing

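In iPSC clones against iNSLCs, 6 members were called under RLE scaling, total-count scaling and the fit of only those 3 libraries, and 5 without the low-count filter and in DESeq2 1.42.0, where NEUROD1 was the gene lost. In iPSC clones against fibroblasts, 3 members were called with RLE scaling and without the filter, 2 with total-count scaling and in DESeq2, where NEUROG2 was lost, and 1 (HES6) when only the 3 libraries of the comparison were fitted, because the filter without the iNSLC library removed the other 6 genes. Leaving out a clone, which left no residual degree of freedom and so no test, moved the members' median log2 ratio of iPSC clones over iNSLCs to between -5.88 and -5.42, and that of iPSC clones over fibroblasts to between 0.02 and 0.97. This second median, 0.57 with both clones, was that of NEUROG1, NEUROD1 and NEUROD4, which lay at the floor of 3 counts in those libraries, so it reflects library depth. With a floor of 1 count the bounds grew, to a log2 ratio of -8.70 for NEUROD4 and -4.93 for NEUROD1 in iPSC clones over iNSLCs. With genes named by Ensembl identifier only, a check added after seeing the data, iPSC clones had 16 lower calls among genes downstream of proneural factors (19 with all names) and 8 among domain factors (9) relative to iNSLCs. OLIG2, which was not called, changed sign: its log2 ratio of iPSC clones over iNSLCs was 0.28 with both clones, 0.95 without clone 2 and -0.997 without clone 1. No other member's ratio changed sign under these alternatives. Among genes named in the report from the lists, DESeq2 did not call ATOH1 (adjusted p = 0.136), HEY2 (0.102), TCF3 (0.0507), SOX1 (0.0536) or SOX10 (0.148) between iPSC clones and iNSLCs, and it called ID2 (0.0158).

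No paired analysis was possible, because the data came from 1 animal, with 1 fibroblast and 1 iNSLC library. For the same reason, spread between iNSLC cultures was not measured. Sums of 12 counts or fewer, as for OLIG2, and HES5 in the clones, limit the comparisons of these genes at this depth.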
